A study of Mus musculus with 15 samples.

Results

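Of 13 pancreatic tumour cell clones with an ATAC-seq library, 2 had almost no accessible chromatin at the tumour suppressor genes Cdkn2a and Cdkn2b, and these 2 are compared here with the 10 clones that kept it. ATAC-seq counts the places where a transposase can insert adapters into DNA, so a high count in a region means open chromatin. Both lacking clones, 6556c3 and 6694c2, are classed as T cell low in the labels, by the T cell content of their tumours. The 10 keeping clones were 5 T cell high clones (6421c2, 6499c4, 6555c3, 6620c1 and 7160c2) and 5 T cell low clones (2699c4, 6419c1, 6419c5, 6422c1 and 6499c3). The T cell high clone 2838c3, with a partly lowered signal, was set apart, and the 2 T cell intermediate samples were not analysed here. All clones were grown untreated under the skin of C57BL/6 mice, and each library was made from 50000 tumour cells sorted 3 weeks after implantation. The labels give no driver alleles, animal ages or batches. Each group is a handful of clones, each with 1 library, so p-values measure the spread between clones. The labels do not say whether clones that share a number, 6419c1 with 6419c5 and 6499c3 with 6499c4, came from 1 tumour.

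The clones were chosen by their raw counts at the locus, in a table of 67945 merged peaks. A clone counted as lacking when at least 5 neighbouring peaks in a row held at most 2 counts each inside a window of 31 peaks, chr4:89257656-89515408 in the mm10 build. The longest such run was 5 peaks in 6556c3 and 26 peaks in 6694c2, against 2 peaks in 2838c3 and 0 to 2 peaks in the keeping clones. So 6556c3 stood at the limit of 5 peaks, while the nearest clones outside it, 2838c3 and 7160c2, reached only 2 peaks. Since the window chose the groups, its values are given as a description, with no test. The shallow depth of the lacking libraries bears on every value. They held 1030616 (6556c3) and 1584299 (6694c2) counts in peaks, against 968296 to 7369228 with a median of 3044958.5 in the keeping clones. At that depth 6556c3 had 15 runs of 5 or more near-empty peaks in the whole genome and 6694c2 had 4, against 0 to 10 in the keeping clones. The run of 26 peaks in 6694c2 was the longest in any library. The run of 5 peaks in 6556c3 held 2 counts, where the median share of the other libraries gave 123.7.

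Cdkn2a is an unusual locus in which separate first exons give a pair of unrelated proteins. The p16Ink4a protein blocks the kinases CDK4 and CDK6, which otherwise inactivate the retinoblastoma protein and release E2F factors. The p19Arf protein, read from an upstream start in another frame, holds back Mdm2 and so protects p53. The neighbour Cdkn2b encodes p15Ink4b, a further CDK4/6 inhibitor, and loss of the locus is frequent in pancreatic cancer.

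The promoter sequences at which the groups stood furthest apart are shown from RefSeq (GRCm38.p6), as the 250 bases before each transcription start, written 5′ to 3′ on the gene's strand. The upstream Cdkn2a start (chr4:89294620-89294869, minus strand) and the Cdkn2b start (chr4:89311033-89311282, minus strand) lay under peaks of the locus. The Irx2 start (chr13:72628570-72628819, plus strand) lay under the peak that differed most outside it. Capitals mark matches to the GC box GGGCGG, or CCGCCC when the other strand holds it.
Cdkn2a, upstream start: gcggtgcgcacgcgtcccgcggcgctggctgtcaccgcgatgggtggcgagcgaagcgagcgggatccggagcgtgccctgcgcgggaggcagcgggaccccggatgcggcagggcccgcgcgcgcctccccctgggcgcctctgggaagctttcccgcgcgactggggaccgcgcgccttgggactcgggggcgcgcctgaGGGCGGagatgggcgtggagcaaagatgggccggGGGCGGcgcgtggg
Cdkn2b: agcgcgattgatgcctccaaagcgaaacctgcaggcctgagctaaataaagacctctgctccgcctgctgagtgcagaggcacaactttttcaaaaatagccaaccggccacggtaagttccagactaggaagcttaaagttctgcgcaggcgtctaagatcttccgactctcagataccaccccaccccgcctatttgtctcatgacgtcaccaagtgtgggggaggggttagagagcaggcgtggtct
Irx2: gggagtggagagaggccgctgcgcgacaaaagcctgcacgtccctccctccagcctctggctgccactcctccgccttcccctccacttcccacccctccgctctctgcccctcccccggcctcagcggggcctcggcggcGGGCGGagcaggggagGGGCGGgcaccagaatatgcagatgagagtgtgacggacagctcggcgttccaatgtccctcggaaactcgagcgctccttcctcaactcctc
The GC content of these stretches was 78.4% for Cdkn2a, 53.6% for Cdkn2b and 68.4% for Irx2, against a median of 52.4% over 32817 promoters of the same length. Cdkn2a and Irx2 each held 2 GC boxes and Cdkn2b held 0, while 32.7% of all promoters held at least 1. The T-box half-site AGGTGTGA, or TCACACCT when the other strand holds it, searched because the T-box gene Tbx3 is among the results, was in none of these 3 stretches and in 1.12% of all promoters. Tbx3 itself is named without a promoter.

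At the upstream Cdkn2a start (peak chr4:89294181-89295588), both lacking clones had 0 counts. The level there was 31.9 to 63.8 CPM in the keeping clones, with a median of 46.4 CPM, and 19.8 CPM in 2838c3. CPM here are counts scaled to a common library total in peaks, after TMM scaling, a correction for composition. Taking 3 counts as the limit that a count of 0 allows, the mean of the lacking clones was at least 20.6-fold lower than that of the keeping clones. The Cdkn2b start peak (chr4:89310280-89311419) had 0 counts in 6556c3 and 4 counts, or 2.41 CPM, in 6694c2. It measured 40.3 to 80.8 CPM in the keeping clones and 21.1 CPM in 2838c3. No merged peak overlapped the downstream Cdkn2a start at chr4:89282192, which gives p16Ink4a, so that promoter has no value in any clone.

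The lacking clones were empty over different lengths of chromosome 4. Over the 4 peaks of Cdkn2a and Cdkn2b, 6556c3 had 1.80 CPM in all and 6694c2 had 2.41 CPM, against 88.7 to 166.3 CPM in the keeping clones. These sums were 1.53% (6556c3) and 2.05% (6694c2) of the keeping median of 117.9 CPM, and 2838c3 stood at 39.2% of it. Over the next 26 peaks, up to chr4:89515408 and with no protein-coding gene among them, the lacking clones parted. There 6694c2 had 3.62 CPM, 1.26% of the keeping median, while 6556c3 had 215.1 CPM, or 74.9% of it. The sum of 6556c3 lay near the lower end of the keeping range of 207.7 to 415.2 CPM, with only 6422c1 below it. Single peaks of 6556c3 lay below every keeping clone or, less often, above. It had 0 counts at chr4:89466649-89467203, against 5.38 to 23.0 CPM in the keeping clones. At chr4:89425931-89426571 it had 18.9 CPM, against 5.38 to 17.3 CPM. The first peak of the window, on the centromere side of Cdkn2a, was at 0 counts in 6694c2 and at 12.6 CPM in 6556c3, against 3.33 to 10.9 CPM in the keeping clones. The near-empty stretch of 6556c3 thus ran over 5 peaks from chr4:89294181 to chr4:89349449. That of 6694c2 reached from chr4:89257656 to chr4:89515408, with 4 counts at Cdkn2b as its only peak above 2.

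**Figure D1:**
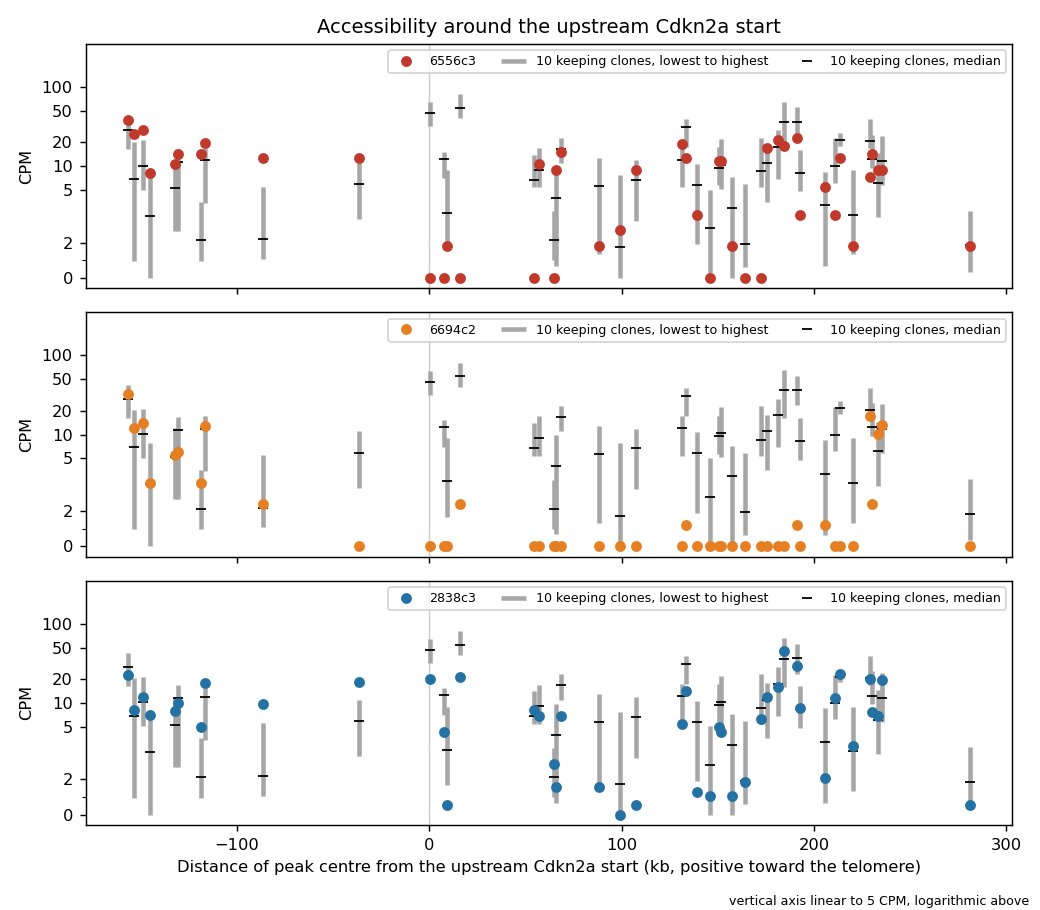
CPM of each peak by its distance from the upstream Cdkn2a start, in 6556c3 (top), 6694c2 (middle) and 2838c3 (bottom), over the lowest, median and highest of the 10 keeping clones; the vertical axis is linear to 5 CPM and logarithmic above. Signal was absent over Cdkn2a and Cdkn2b in 6556c3 and over almost the whole window in 6694c2, and lowered in part in 2838c3.

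The summed signal of each flank lay inside the keeping range in both lacking clones. Mtap, the gene of methionine salvage next to Cdkn2a, lies on the centromere side with Klhl9, Focad and the type I interferon genes. The 72 peaks of that side, from chr4:88005859, summed to 1517 CPM in 6556c3 and 769 CPM in 6694c2. The keeping clones ranged from 647 to 1547 CPM with a median of 832 CPM. Only 6421c2, at 1547 CPM, was above 6556c3, and the next keeping clone, 6555c3, was at 1101 CPM. On the telomere side, 5 peaks before Dmrta1 summed to 41.4 CPM in 6556c3 and 42.9 CPM in 6694c2, against 40.3 to 102.1 CPM in the keeping clones. Of the keeping clones only 7160c2, at 40.3 CPM, was lower on that side. The pair of peaks nearest the window were partly lowered there. The first measured 7.20 CPM in 6556c3 and 16.9 CPM in 6694c2, against 16.8 to 39.1 CPM in the keeping clones. The next measured 14.4 CPM in 6556c3 and 2.41 CPM in 6694c2, against 9.59 to 25.1 CPM in the keeping clones, so each lacking clone was below every keeping clone at 1 of these peaks.

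Chromosome 4 differed between the lacking clones on a larger scale. In windows of 5 Mb, each clone's median log2 deviation from the mean of 12 libraries was taken as its level. From 60 to 90 Mb the 6 windows of 6556c3 lay at 0.53 to 0.996, and the 14 windows beyond 90 Mb at -0.09 to 0.20. The same stretches of 6694c2 lay at 0.02 to 0.34 and at -0.26 to 0.18. Peaks from 88 to 91 Mb were left out of these levels, so the windows on either side of 90 Mb do not include the locus. For 6556c3 the level was 0.996 in the window from 85 to 90 Mb and 0.03 in the next. In 5 of the 6 windows it was below the highest keeping clone, and in the window from 65 to 70 Mb, with 10 peaks, it was 0.82 against at most 0.28 in the keeping clones. Accessible sites and copies of the DNA that carries them cannot be told apart in these counts.

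Outside chromosome 4 from 88 to 91 Mb, 2 of 66494 peaks differed between lacking and keeping clones, a share of 0.00301%. Both were higher in the lacking clones and lay at genes of developmental transcription factors, Irx2 and Tbx3. The test was edgeR's quasi-likelihood test with Benjamini-Hochberg adjustment over all peaks, called at an adjusted p below 0.05. No peak was called lower, and the smallest adjusted p among the other peaks was 0.805. At an unadjusted p under 0.05 there were 4027 peaks, or 6.06%, of which 1370 (2.06%) were higher and 2657 (4.0%) lower in the lacking clones.

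**Figure D2:**
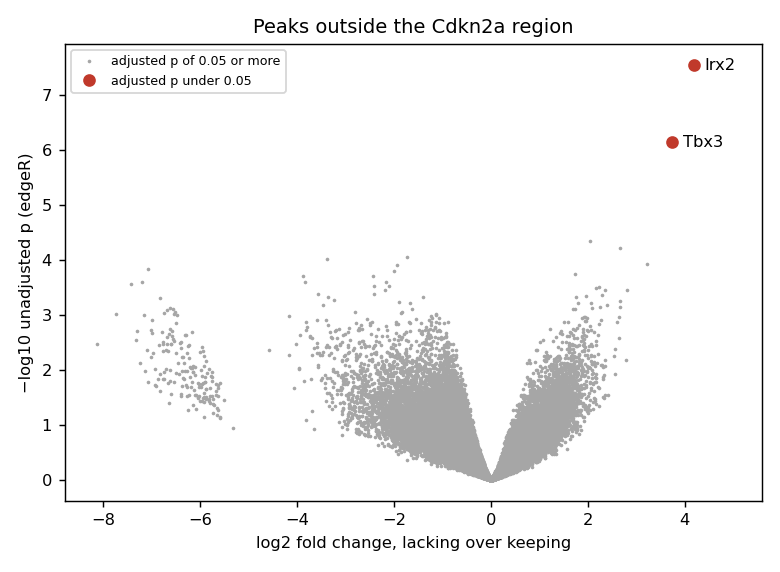
Log2 fold change, lacking over keeping, against the −log10 of the unadjusted p for 66494 peaks, 1 point each. The peaks at Irx2 and Tbx3 stand above all others, and the separate group of points at the far left holds peaks with 0 counts in both lacking clones, whose fitted fold change is no measure of size.

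Irx2 encodes an Iroquois homeobox factor that patterns embryonic tissues. Its promoter peak (chr13:72628355-72629074, mm10) measured 24.3 CPM in 6556c3 and 37.4 CPM in 6694c2, from 27 and 62 counts. In the keeping clones it measured 0.538 CPM at the lowest, 1.25 CPM at the median and 3.59 CPM at the highest. Every keeping clone of either T cell kind was thus nearly closed there, and so was 2838c3 at 1.04 CPM. The log2 fold change was 4.19 with a standard error of 0.49 and an adjusted p of 0.00184 (edgeR). Within the T cell low clones alone, 2 lacking against 5 keeping, it was 4.36 with an adjusted p of 0.0441 (edgeR). Without 6694c2 it was 3.85 and no longer called, at an adjusted p of 0.492 (edgeR). With 1 lacking clone left, the spread comes from the keeping clones alone, and the lone clone is assumed to vary as they do. Irx2 stands on chromosome 13, and after correction for regional dosage in 5 Mb windows its log2 fold change was 3.86 with an adjusted p of 0.00952 (edgeR). The 3 other tested peaks around Irx2, all upstream of it by more than 300 kb, overlapped between the groups. The closest of them measured 10.8 CPM in 6556c3 and 1.81 CPM in 6694c2, against 0 to 6.53 CPM in the keeping clones.

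Tbx3 encodes a T-box repressor which in mouse cells is known to hold down transcription of p19Arf. Its peak (chr5:119670228-119671079) overlaps an end of the gene. It measured 70.2 CPM in 6556c3 and 10.9 CPM in 6694c2, from 78 and 18 counts. The keeping clones measured 0.851 CPM at the lowest, 3.21 CPM at the median and 6.80 CPM at the highest, and 2838c3 measured 2.09 CPM. Both lacking clones lay above all keeping clones, 6556c3 by far the more. The log2 fold change was 3.74 with a standard error of 0.54 and an adjusted p of 0.0232 (edgeR). Without 6556c3 the log2 fold change was 1.84, and 6694c2 alone was not called against the keeping clones (adjusted p 1.0, edgeR). Within the T cell low clones it was 3.71 with an adjusted p of 0.273 (edgeR), and leaving out any of the keeping clones 6419c5, 6499c3, 6499c4 or 7160c2 also ended the call, at adjusted p-values of 0.0506 to 0.0694 (edgeR). The call was also lost when clones sharing a number were summed (adjusted p 0.0830, edgeR), with T cell phenotype as a covariate (0.356), with the share of counts in gene-end peaks as a covariate (0.0863) and in limma-voom (0.558). A second Tbx3 peak at chr5:119691058-119691576 measured 5.40 CPM in 6556c3 and 6.04 CPM in 6694c2, inside the keeping range of 0.851 to 15.3 CPM. The related gene Tbx2, also a repressor of the locus in mouse cells, measured 10.8 CPM in 6556c3 and 12.7 CPM in 6694c2, against 0.308 to 17.4 CPM in the keeping clones.

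**Figure D3:**
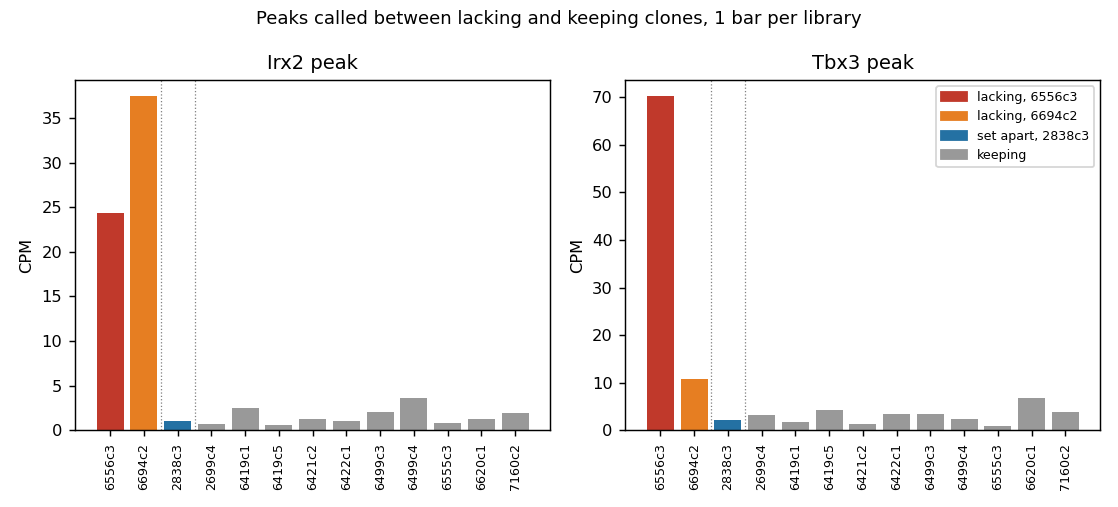
CPM of the Irx2 peak (left) and the Tbx3 peak (right), 1 bar per library, with the lacking clones first, then 2838c3 and the 10 keeping clones. The Irx2 peak was at least 24.3 CPM in both lacking clones and at most 3.59 CPM elsewhere; the Tbx3 peak was high in 6556c3 and lower, at 10.9 CPM, in 6694c2.

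Peaks that came next in the order of p did not pass the test, and the next 8 in the higher direction overlapped no end of a protein-coding gene. The first of them, 27372 bp from Mid1 on chromosome X, measured 89.1 CPM in 6556c3 and 54.9 CPM in 6694c2, against 5.10 to 31.3 CPM in the keeping clones (log2 fold change 2.04, adjusted p 0.805, edgeR). The next, chr15:51709827-51710670, measured 33.3 CPM in 6556c3 and 24.1 CPM in 6694c2, against 0.538 to 10.1 CPM in the keeping clones (log2 fold change 2.66, adjusted p 0.805, edgeR). Its nearest gene is Eif3h, at a distance of 75893 bp, and 2838c3 measured 17.7 CPM there. Among the 10 lower peaks with the smallest p, the peak at the start of Cers6, a ceramide synthase gene, measured 18.9 CPM in 6556c3 and 13.9 CPM in 6694c2. It measured 28.2 to 72.4 CPM in the keeping clones, which lay wholly above the lacking ones (log2 fold change -1.73, adjusted p 0.805, edgeR). A peak beside Clock, the circadian transcription factor gene, measured 4.50 CPM in 6556c3 and 9.66 CPM in 6694c2, against 18.7 to 34.6 CPM in the keeping clones. A peak inside Hrh1, a histamine receptor gene, held 2 counts in 6556c3 and 1 in 6694c2, against 6.32 to 16.6 CPM in the keeping clones. In all, 1610 peaks (2.42%) were above all keeping clones in both lacking clones and 1845 (2.77%) were below all of them. Of all tested peaks, 167 (0.251%) had 0 counts in both lacking clones, which at their depth cannot be read as closed sites.

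Summing the peaks within 50 kb of each protein-coding gene gave 15144 genes, of which 1 was called, or 0.0066%. This was Irx2 again, whose single linked peak is the one above (log2 fold change 4.25, adjusted p 0.000572, edgeR). At an unadjusted p under 0.05 there were 1109 genes (7.32%), with 551 (3.64%) higher and 558 (3.68%) lower in the lacking clones. Tbx3, with both of its peaks, had 75.6 CPM in 6556c3 and 16.9 CPM in 6694c2, against 1.70 to 19.2 CPM in the keeping clones, and did not pass (log2 fold change 2.73, adjusted p 0.371, edgeR). Of the 10 genes with the smallest p in each direction, most had groups that did not overlap without passing the test. Choice by small p favours such genes. Carmil3, a regulator of actin capping, summed to 36.9 CPM in 6556c3 and 29.6 CPM in 6694c2, against 8.50 to 16.1 CPM in the keeping clones. Cntf, a neurotrophic cytokine, summed to 10.8 CPM in 6556c3 and 18.7 CPM in 6694c2, against 2.55 to 8.25 CPM in the keeping clones. Rxrg, a retinoid X receptor, summed to 32.4 CPM in 6556c3 and 20.5 CPM in 6694c2, against 2.81 to 11.1 CPM in the keeping clones. All 3 were thus above every keeping clone in both lacking clones, as were 2.07% of all genes, at adjusted p-values of 0.529 to 0.627 (edgeR).

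On the lower side, Rsu1, a Ras suppressor and adhesion protein gene, summed to 36.9 CPM in 6556c3 and 39.2 CPM in 6694c2, against 68.5 to 98.3 CPM in the keeping clones. Crb3, which sets apical polarity in epithelial cells, summed to 6.30 CPM in 6556c3 and 7.24 CPM in 6694c2, against 13.1 to 52.9 CPM in the keeping clones. Stk39, a stress-responsive kinase, summed over 12 peaks to 39.6 CPM in 6556c3 and 27.2 CPM in 6694c2, against 41.6 to 220.9 CPM in the keeping clones. The lowest keeping clone for Stk39 was 2699c4, and with it Stk39 did not pass (adjusted p 0.559, edgeR). Of 19 alternatives, only that without 2699c4 called Stk39 lower (log2 fold change -2.18, adjusted p 0.0148, edgeR). Leaving out the keeping clone nearest the lacking ones favours such a call. At Stk39 the clone 2838c3 was lower still, at 17.5 CPM. Over all genes, 314 (2.07%) were above every keeping clone in both lacking clones and 563 (3.72%) were below.

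Genes of the cell cycle brake that Cdkn2a acts on were read from 1 peak per gene, the highest within 1 kb of either end of the gene. Over the 12408 genes with such a peak, 1 was called (0.00806%), which was Tbx3. The called Irx2 peak lay 3925 bp from the nearest end of the gene record and so is not in this set. The median log2 fold change of the set was -0.17, against -0.07 over all peaks, and 8166 of the 12408 were below 0. At an unadjusted p under 0.05, 748 (6.03%) were lower and 161 (1.3%) higher, and in 582 (4.69%) both lacking clones lay below all keeping clones. The share of counts in these peaks was 40.7% in 6556c3 and 39.8% in 6694c2, within the 38.2% to 47.4% of the keeping clones, whose median was 41.4%. Its part in the lower median was not tested.

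In the CDK4/6-RB axis, all 21 listed genes had a peak, 0 were called, and in none were the groups apart. The median log2 fold change was -0.20, close to that of all gene-end peaks, with 9 genes above 0 and 12 below. Cdk4, one of the kinases that p16Ink4a inhibits, measured 30.6 CPM in 6556c3 and 29.0 CPM in 6694c2, against 30.1 to 99.5 CPM in the keeping clones (log2 fold change -0.83, SE 0.41, adjusted p 0.825, edgeR). Its partner kinase gene Cdk6 measured 16.2 CPM in 6556c3 and 12.1 CPM in 6694c2, inside the keeping range of 11.9 to 28.0 CPM. Rb1, the retinoblastoma gene on chromosome 14, measured 38.7 CPM in 6556c3 and 59.8 CPM in 6694c2, against 22.1 to 49.9 CPM in the keeping clones (log2 fold change 0.45, SE 0.30, adjusted p 0.844, edgeR). So 1 lacking clone lay above every keeping clone for Rb1 and the other among them.

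Among the D cyclins, which switch on CDK4 and CDK6, Ccnd2 had the lowest fold change. It measured 12.6 CPM in 6556c3 and 24.1 CPM in 6694c2, against 16 to 66.9 CPM in the keeping clones (log2 fold change -1.15, SE 0.53, adjusted p 0.816, edgeR). Ccnd1 and Ccnd3 stood at log2 fold changes of -0.21 and 0.09. The listed E2F factors spread from -0.75 for E2f4, which acts mainly as a repressor, to 0.86 for E2f2, an activator. E2f4 measured 12.6 CPM in 6556c3 and 25.4 CPM in 6694c2, against 24.9 to 42.1 CPM in the keeping clones. Of the E2F target genes, 0 of 25 were called and 18 were below 0, with a median of -0.16.

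The other CDK inhibitors were measured for 5 of 6 genes, since Cdkn1a had no tested peak within 1 kb of its ends. None was called and the groups overlapped for all 5, with a median log2 fold change of -0.36. Cdkn1b, which encodes p27Kip1, measured 72.9 CPM in 6556c3 and 62.8 CPM in 6694c2, against 59.5 to 130.8 CPM in the keeping clones. Cdkn2c, the p18Ink4c gene and a relative of Cdkn2a, measured 31.5 CPM in 6556c3 and 44.1 CPM in 6694c2, against 24.7 to 77.0 CPM in the keeping clones. Cdkn2d, the p19Ink4d gene, measured 80.1 CPM in 6556c3 and 73.1 CPM in 6694c2, against 66.7 to 261.0 CPM in the keeping clones. The smallest p among the 5 belonged to Cdkn1b, with an adjusted value of 0.840 (edgeR).

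**Figure D4:**
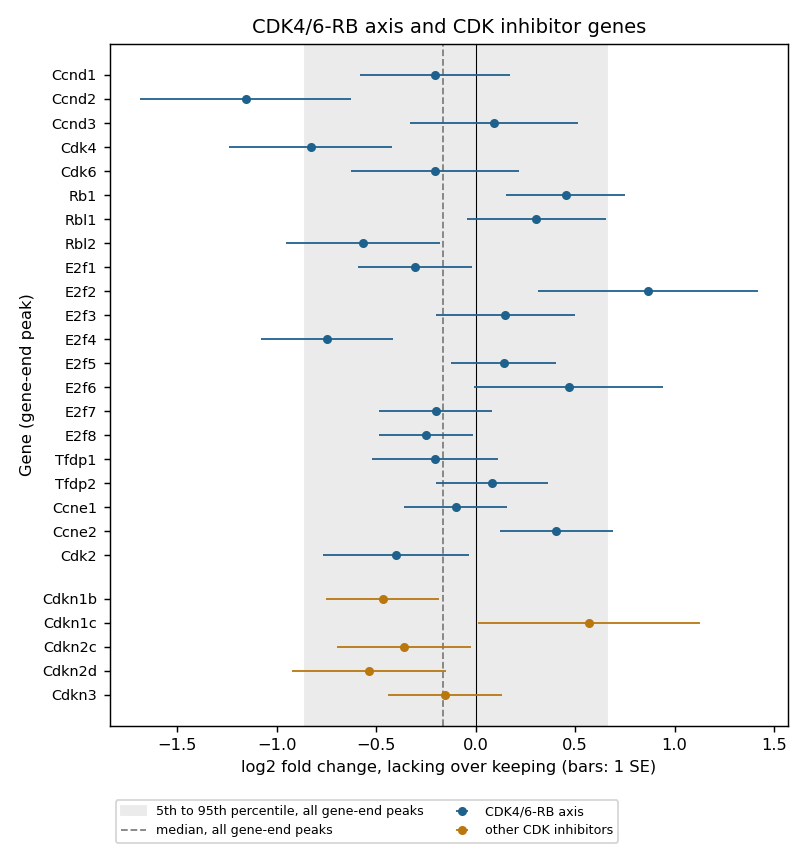
Log2 fold change of accessibility, lacking over keeping, with 1 SE, for 21 genes of the CDK4/6-RB axis and 5 other CDK inhibitor genes, over the 5th to 95th percentile (-0.86 to 0.66) and the median of all gene-end peaks. Of the 26 genes, none was called; Ccnd2 lies below the grey band and E2f2 above it.

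The p19Arf arm of the locus was read from p53 regulators and p53 target genes. All 9 measured regulators had a log2 fold change below 0, as did 8166 of the 12408 gene-end peaks, with a median of -0.38, and 0 were called. Their peaks summed to 296.1 CPM in 6556c3 and 353.8 CPM in 6694c2, against 359 to 523.7 CPM in the keeping clones. The sum was thus below every keeping clone in both, but no share over all features was worked out for such sums. Among the 9 regulators, 1 had both lacking clones below all keeping clones, as did 4.69% of all gene-end peaks. Trp53 itself measured 21.6 CPM in 6556c3 and 24.1 CPM in 6694c2, against 15.3 to 44.1 CPM in the keeping clones. Mdm2, the ligase that p19Arf blocks, measured 40.5 CPM in 6556c3 and 39.8 CPM in 6694c2, against 31.6 to 96.9 CPM in the keeping clones. That 1 was Npm1, a nucleolar partner of p19Arf. It measured 36.0 CPM in 6556c3 and 41.7 CPM in 6694c2, just below the keeping range of 43.4 to 80.8 CPM (log2 fold change -0.71, SE 0.27, adjusted p 0.810, edgeR).

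Of 22 measured p53 target genes, 0 were called, 16 were below 0 and the median log2 fold change was -0.25. Their peaks summed to 930.6 CPM in 6556c3 and 880.2 CPM in 6694c2, against 943.4 to 1338 CPM in the keeping clones. In 3 of them both lacking clones lay below all keeping clones, against a share of 4.69% over all gene-end peaks. Sesn1, a stress-induced regulator of growth signalling, measured 24.3 CPM in 6556c3 and 43.5 CPM in 6694c2, against 46.4 to 70.1 CPM in the keeping clones. Perp, a desmosomal apoptosis effector, measured 18 CPM in 6556c3 and 26.0 CPM in 6694c2, against 27.8 to 51.9 CPM in the keeping clones. Ddb2, a DNA repair gene, measured 34.2 CPM in 6556c3 and 30.2 CPM in 6694c2, against 35.3 to 68.2 CPM in the keeping clones. These margins were small, and the smallest adjusted p in the list, that of Sesn1, was 0.810 (edgeR).

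Of the factors that act on the Cdkn2 locus, 20 of 24 were measured, and Tbx3 was the 1 called. Tbx3 was also the 1 called over all 12408 gene-end peaks (0.00806%). The list was chosen with earlier results of these data known, so its holding Tbx3 adds no weight to that call. This list includes genes known from earlier work on the locus, and the median of its members was -0.31. Polycomb genes, which silence the locus in mouse cells, overlapped between the groups. Bmi1 measured 41.4 CPM in 6556c3 and 58.6 CPM in 6694c2, against 41.6 to 105.2 CPM in the keeping clones. Ezh2 measured 70.2 CPM in 6556c3 and 94.8 CPM in 6694c2, against 73.7 to 129.3 CPM in the keeping clones. Junb, an AP-1 factor known to induce p16Ink4a, measured 34.2 CPM in 6556c3 and 60.4 CPM in 6694c2, against 39.3 to 163.0 CPM in the keeping clones (log2 fold change -1.16, SE 0.37, adjusted p 0.805, edgeR).

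The remaining lists had 0 called members. In methionine salvage and PRMT5, 13 of 15 genes were measured with a median of -0.11; Mtap lies inside the excluded stretch. Of 26 interferon response genes, 18 were below 0, with a median of -0.25. Ifih1, the RNA sensor MDA5, had the lowest value in that list, at 9.0 CPM in 6556c3 and 10.9 CPM in 6694c2, against 15.5 to 41.4 CPM in the keeping clones (log2 fold change -1.56, SE 0.42, adjusted p 0.805, edgeR). Rsad2, the antiviral enzyme viperin, had the highest, at 18.9 CPM in 6556c3 and 6.04 CPM in 6694c2, against 1.61 to 6.89 CPM in the keeping clones. Secreted factors of senescent cells had a median of 0.10 over 20 genes, and the growth factor gene Vegfa among them measured 18 CPM in 6556c3 and 19.9 CPM in 6694c2, below the keeping range of 23.0 to 59.3 CPM. Genes altered in pancreatic cancer had a median of -0.28 over 19 measured genes. Among them Smad4, the TGF-beta signal transducer, measured 57.6 CPM in 6556c3 and 68.8 CPM in 6694c2, against 64.4 to 107.2 CPM in the keeping clones.

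The tumour cell identity was read from epithelial genes, of which 27 of 30 were measured. Of these 22 were below 0 in the lacking clones, with a median of -0.40, against -0.17 over all gene-end peaks. The keratin gene Krt8 measured 7.2 CPM in 6556c3 and 15.1 CPM in 6694c2, against 18.8 to 35.3 CPM in the keeping clones (log2 fold change -1.31, SE 0.38, adjusted p 0.805, edgeR). Krt7 measured 9.0 CPM in 6556c3 and 6.64 CPM in 6694c2, against 9.75 to 32.3 CPM in the keeping clones. For both keratins the lacking clones lay below every keeping clone, which held for 3 of the 27 genes and for 4.69% of all gene-end peaks. Epcam and Krt19 were open in every clone: Epcam measured 15.3 CPM in 6556c3 and 26.6 CPM in 6694c2, against 7.99 to 92.4 CPM in the keeping clones. The mesenchymal list had a median of -0.31 over 17 genes, so the groups did not part in opposite directions on these 2 lists.

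Markers of other cells that the sort could hold gave sums that overlapped between the groups for every list. The 7 measured pan-leukocyte genes of 15 summed to 79.2 CPM in 6556c3 and 58.0 CPM in 6694c2, against 56.7 to 103.4 CPM in the keeping clones. The macrophage, monocyte and neutrophil genes, 7 of 19, summed to 35.1 CPM in 6556c3 and 32.6 CPM in 6694c2, against 33.2 to 86.8 CPM in the keeping clones. T and NK cell genes, fibroblast genes, endothelial genes and skin and muscle genes lay inside the keeping ranges. Most defining markers, such as Cd3e, Csf1r, Pdgfra and Pecam1, had no tested gene-end peak, and the part of other cells in the results was not tested.

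The levels of the 20 whole chromosomes were set side by side with an exact two-sided permutation test over 66 splits of 2 against 10. The smallest p that this design allows is 0.0303, so after adjustment over 20 chromosomes the threshold was out of reach unless most chromosomes stood at that limit. The smallest unadjusted p was 0.0606, for chromosomes 2, 10, 13 and 14, and the test says nothing about whether chromosomes differed. On chromosome 13, which carries Irx2, the level was 0.31 in 6556c3 and 0.27 in 6694c2, against -0.26 to 0.30 in the keeping clones, where 2699c4 was the highest. On chromosome 14, which carries Rb1, it was 0.17 in 6556c3 and 0.41 in 6694c2, against -0.19 to 0.18 in the keeping clones. On chromosome 10, which carries Cdk4, it was -0.21 in 6556c3 and -0.30 in 6694c2, against -0.25 to 0.23 in the keeping clones.

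Among 503 windows of 5 Mb, both lacking clones were above all keeping clones in 14 (2.78%) and below all in 13 (2.58%). The higher windows were 8 on chromosome 14, 5 on chromosome 13 and 1 on chromosome 4. The lower windows included 6 on chromosome 17, 2 on chromosome 10 and 2 on chromosome 2. Windows of 1 chromosome share their dosage and are not independent of each other. Where the groups did not overlap, the window differences were at most 0.48 on the log2 scale in either direction. Windows that overlapped held larger ones, such as 0.67 on chromosome 4 from 65 to 70 Mb.

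**Figure D5:**
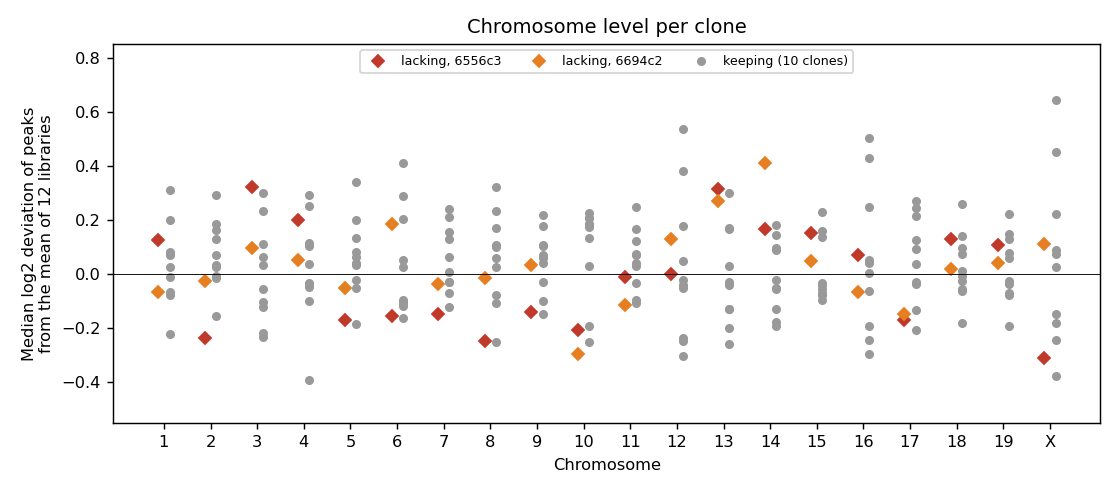
Median log2 deviation of the peaks of each chromosome from the mean of 12 libraries, with 6556c3 and 6694c2 as diamonds left of the 10 keeping clones. The lacking clones sit at or near the upper edge on chromosomes 13 and 14 and at or near the lower edge on chromosome 10.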

How the data were processed

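Raw counts of reads per merged peak were deposited by the authors for 13 libraries, made with featureCounts 1.5.3 on mm10, per the file headers, with no read-pair or strand option; alignment names end in nodup. How reads were aligned and how peaks were called and merged is not given in the sources used here; DESeq2 is named in the submitters' processing notes. Every column matched a clone by its title. Groups, members and gene lists were chosen with earlier results of these data known.

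Peaks were tested with edgeR 4.0.16 in R 4.3.3 (TMM scaling, filterByExpr by group), lacking over keeping. The test covered 66494 of 67837 peaks outside chromosome 4 from 88 to 91 Mb. A prior count of 2 entered only the chromosome and window levels and the dosage offsets. Fits were tested on simulated data. CPM used TMM-scaled totals. DESeq2 1.42.0 and limma 3.58.1 were alternatives. Genes (21883 protein-coding) came from the RefSeq table of GRCm38.p6, which gives no exons. Limits from counts of 0 cover counting error only; reads carry no molecular identifiers.

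Named were the 10 peaks and 10 summed genes with the smallest p in each direction, each list's called member or else the member with the smallest p, and any gene of the locus, the CDK4/6-RB axis or the CDK inhibitors; 1 list member that this rule names is not reported here. Other list genes given for their role, and peaks described beside called ones, were chosen after their values were seen.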

Additional observations from a re-analysis of the deposited data

Results flagged for a closer look

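Among 104 values tested for a clone standing apart from the other keeping clones, 10 did, where a rate of about 1 in 20 would be a rough guide to chance. The values are not independent, because a summed gene can hold a named peak, so the number of flags cannot be set against that rate. The clone 6499c3 was the highest keeping clone by a wide gap at Vegfa (59.25 CPM), Dusp1 (114.5 CPM), E2f2 (23.97 CPM), Cdkn2d (261.0 CPM) and the summed peaks of Cirbp (159.1 CPM), a cold-inducible RNA-binding protein gene. That library also had the highest share of counts in gene-end peaks, 47.4% against a keeping median of 41.4%, and the part of this share was not tested. The clone 6421c2 stood apart at Cx3cl1, a chemokine gene (79.49 CPM), and at Rbl2, a relative of Rb1 (145.1 CPM). Cdk6 was highest in 6419c5 at 27.97 CPM, and the summed peaks of Zfp992 in 7160c2 at 58.52 CPM. A peak inside Kirrel3 on chromosome 9, with 0 counts in both lacking clones, was highest in 6555c3 at 11.91 CPM.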

How the results depend on the processing

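The T cell low origin of both lacking clones, their shallow libraries and their number limit every comparison, and each call was lost without 1 of the 2 lacking clones (Irx2 without 6694c2, Tbx3 without 6556c3). The count of called peaks stayed at 2 with DESeq2 size factors, no filter, 2838c3 added, DESeq2, regional dosage offsets, chromosome 4 left out, and all libraries thinned to the shallowest. It was 1 with T cell phenotype as a covariate, T cell low libraries only, limma-voom, clones sharing a number summed, and the share of counts in gene-end peaks as a covariate, and Irx2 was then the one called. Thinning and the gene-end share were chosen after seeing the data. Leaving out 1 library gave 1 to 3 called peaks: without 6694c2 it was Tbx3 alone, and without 6556c3, 6419c5, 6499c3, 6499c4 or 7160c2 Irx2 alone. Called list members, 1 in the main comparison, were 0 with the same 5 settings and 0 to 1 with 1 library left out.

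Irx2 kept a log2 fold change of 3.85 to 4.46 and was called in 23 of 24 alternatives (adjusted p 1.73e-07 to 0.492). Tbx3 ranged from 1.84 to 4.55 and was called in 14 of 24 (adjusted p 0.000194 to 1.0). Called summed genes numbered 2 with T cell phenotype as a covariate (Irx2 and Zdhhc21, named after its values were seen) and 0 to 2 with 1 library left out, 0 without 6694c2.

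Signs turned for uncalled cell cycle genes with small values. With T cell phenotype as a covariate, Ccnd3 stood at -0.0044, E2f3 at -0.088 and E2f5 at -0.044. With T cell low libraries only, E2f3 stood at -0.080 and E2f5 at -0.036. With dosage offsets E2f3 stood at -0.11, E2f5 at -0.079, E2f7 at 0.11, Ccne1 at 0.088, Cdk2 at 0.13 and Cdkn2d at 0.018. With thinning E2f7 stood at 0.0026, Ccne1 at 0.075 and Cdkn3 at 0.037. Without 6556c3, E2f3 stood at -0.11, E2f5 at -0.034, Tfdp1 at 0.15, Ccne1 at 0.083 and Cdkn1c at -0.22. Without 6694c2, Ccnd3 stood at -0.30, Cdk6 at 0.0043 and Tfdp2 at -0.32. The cause was not tested. No paired analysis was possible because the labels number no replicates and those given in accession order pair nothing.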

Other observations

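At the Myc gene-end peak the keeping clone 2699c4 measured 2438 CPM, while the other keeping clones measured 38.7 to 118.8 CPM and the lacking clones 41.4 CPM (6556c3) and 59.2 CPM (6694c2). The fold change of Myc between the groups, -2.57 on the log2 scale, rests on that clone. The clone 2838c3 had 0.522 CPM at Cdkn1c, the p57Kip2 gene, against 3.66 to 26.5 CPM in the keeping clones.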
